A study of Rattus norvegicus with 47 samples.

Results

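The cytosolic ribosomal protein genes were taken from a liver array study as the probe sets whose single platform gene symbol begins with Rpl or Rps followed by a digit, or is Rplp0, Rplp1, Rplp2 or Rpsa. Symbols beginning with Rps6k, which name S6 kinases, were left out. This gave 57 probe sets for 50 genes, of 20826 single-gene probe sets and 14217 named genes in all. Where a gene had several probe sets, the brightest over the 13 groups stood for it, and the same one was chosen for 50 of 50 genes after quantile normalization, which gives every array the same distribution of values. Of the 50 genes, 34 belong to the large subunit and 16 to the small, copies and pseudogenes included.

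The cytosolic ribosome is built from ribosomal RNA and about equal amounts of each ribosomal protein, and the proteins of the large and small subunits are made in the cytosol and assembled in the nucleolus. Many vertebrate mRNAs for these proteins begin with a cytosine followed by a run of pyrimidines, the 5′ terminal oligopyrimidine (TOP) motif, through which growth signalling controls their translation. In liver, where plasma proteins are made in bulk, ribosomal protein mRNAs are among the abundant transcripts.

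Each of the 47 arrays carried liver RNA of 1 female Sprague-Dawley rat of 8 weeks. In the diet experiment, pups of dams kept on a vitamin A-deficient purified diet ate that diet from weaning with different amounts of retinol. The 5 deficient livers came from rats given 0 mg retinol per kg of diet, the 7 marginal livers from 0.4 mg, the 6 adequate livers from 4 mg and the 2 supplemented livers from 100 mg. A time course followed a dose of about 100 µg of all-trans-retinoic acid (RA) in rats raised the same way on the deficient diet, so its controls, 3 rats given vehicle and killed at 0 h, were vitamin A-deficient too. Treated livers were taken from 3 rats at each of 3, 6 and 16 h and from 4 rats at 10 h. In the intravenous experiment, rats on a stock diet whose food had been withdrawn were injected into an iliac vein under isoflurane. Of these, 2 had vehicle and were killed at 0 min, and 3 each were killed at 30, 60 and 90 min after about 25 µg of albumin-bound all-trans-RA. In their titles the vehicle samples are named untreated. The 4 RA times share their 3 vehicle arrays, and the 3 intravenous times share their 2, so the differences within an experiment are not independent of each other.

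Values are log2 signals with the array median at 0. Of the 50 genes, 38 had a mean signal of 5.61 (Rpl14) to 7.86 (Rps29), and each of them lay at or above the 97.17th percentile of every array. The other 12 had means from -2.82 (Rpl28) to 3.04 (Rpl7l1), and the boundary of 5 between both classes was set in that gap after the values were seen. The highest means were those of Rps29 (7.86), Rpl26 (7.85), Rpl7a (7.62), Rps23 (7.48) and Rpl37a (7.48), and the lowest those of Rpl28 (-2.82), Rps4x-ps1 (-2.54), Rpl3l (-2.32), Rpl39l1 (-1.90) and Rpl30 (-1.60). Signals of different probe sets do not order the transcripts by amount. Among the low-signal genes are Rpl39, Rps13, Rpl28 and Rpl30, which encode core proteins, and copies such as Rpl3l, Rpl7l1, Rpl26l1, Rpl39l1, Rps27l and Rps4y2. A further 36 probe sets list several ribosomal protein symbols, mostly a gene and its near-identical copies, and 33 of these also had a mean above 5. They include the probe sets that list Rpl10, Rplp1, Rps27 and Rpl22l1, and bright ones that list Rps13 (1 probe set), Rpl28 (1) and Rpl30 (2), and they fall outside the rule. Transcripts of such near-identical copies may not be told apart on an array, so values of single genes may include their copies. The labelled tissue was checked with hepatocyte markers: 7 of 8 were measured, with medians per array of 8.59 to 8.98 in the vehicle livers of the RA time course and 7.79 to 8.03 in those of the intravenous experiment.

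The start of the transcript was read for 43 of the 50 genes in RefSeq's promoter table for the build GRCr8. The TOP motif was searched as a C at the annotated start followed by 4 or more bases that are C or T, on the gene's strand only. It was present in 12 of 43 genes (27.9%), 10 of them among the 34 high-signal genes with an entry, and in 722 of 27457 promoters (2.63%). A C at the annotated start was found in 17 genes, against 24.2% of promoters. A run of 8 or more pyrimidines within 30 bases of the start was found in 31 genes (72.1%), against 23.2% of promoters. No entry was found for Rps29, Rpl7, Rpl27, Rpl23a, Rpl37-ps2, Rpl30 and Rps4x-ps1. The windows below run from 10 bases before the start to 20 bases from it, 5′ to 3′ on the gene's strand, with the C and its pyrimidine run in capitals. They are shown because they carry the family's known translational signal, and because the results below turn on some of these genes. Among the high-signal genes, Rpl34 varied least between arrays of a group after quantile normalization and Rpl37a most. Rpl39, a low-signal gene, was the only called gene in the RA time course.
Rplp0, chr12:46718371-46718400, minus strand: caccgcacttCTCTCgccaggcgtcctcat
Rpl34, chr2:221962264-221962293, minus strand: tccttttcctCTTCCggggacggtgcttag
Rpl37a, chr9:81748081-81748110, plus strand: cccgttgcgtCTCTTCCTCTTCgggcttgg
Rpl39, chrX:121195877-121195906, minus strand: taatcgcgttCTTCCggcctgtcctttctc
Rpl19, chr10:83519054-83519083, plus strand: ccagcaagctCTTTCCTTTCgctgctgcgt
Rps15, chr7:10068096-10068125, minus strand: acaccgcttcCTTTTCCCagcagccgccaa
Rpl22, chr5:168117951-168117980, plus strand: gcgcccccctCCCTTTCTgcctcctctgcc
Rps6, chr5:106420521-106420550, minus strand, with no such run at the annotated start: ctcctaggcggtcggctgtgtcaagatgaa
A match describes the letters at an annotated start, and no match says only that these letters are not there. The 10 high-signal genes with the motif and the 24 without it had close median differences in the main comparisons. For deficient minus adequate livers these were -0.23 and -0.20 in the deposited values and 0.01 and 0.05 after quantile normalization. For 16 h of RA minus vehicle they were -0.16 and -0.19, and 0.19 and 0.17.

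The diet comparison asked whether ribosomal protein transcripts depend on dietary vitamin A. The median signal of the 38 genes was 5.56, 5.88, 6.57, 7.26 and 7.21 in deficient replicates 1 to 5, and in the 6 adequate livers its lowest, median and highest values were 6.47, 6.82 and 7.34. Deficient replicates 1 and 2 lay below the other diet arrays, and deficient replicates 4 and 5 lay among the highest, so both groups overlapped. The diet arrays fall into 2 runs (below), and deficient replicates 1, 2 and 3 are of the second. Its adequate arrays had 6.47 and 6.67, and those of the first run 6.78 to 7.34. After quantile normalization the deficient arrays had 6.45, 6.56, 6.64, 6.86 and 6.88, and the adequate arrays ran from 6.51 to 6.88. The SD over all probe sets of an array was 1.95 and 2.08 on deficient replicates 1 and 2, against a median of 2.53 over the 20 diet arrays, and the part of this narrower scale in their low medians was not tested beyond the quantile normalization. The median percentile of the 38 genes within an array was 98.87 to 99.24 over the 20 diet arrays. Genes so near the top of an array have little room to move on that scale. The log2 signal of the 3′ minus the 5′ control probe set of Gapdh, which rises as RNA degrades, was 0.92 on deficient replicate 5 and 1.37 on adequate replicate 5, against a median of 0.36 over these arrays. A bulk array cannot tell fewer cells of a type from less RNA per cell.

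**Figure D1:**
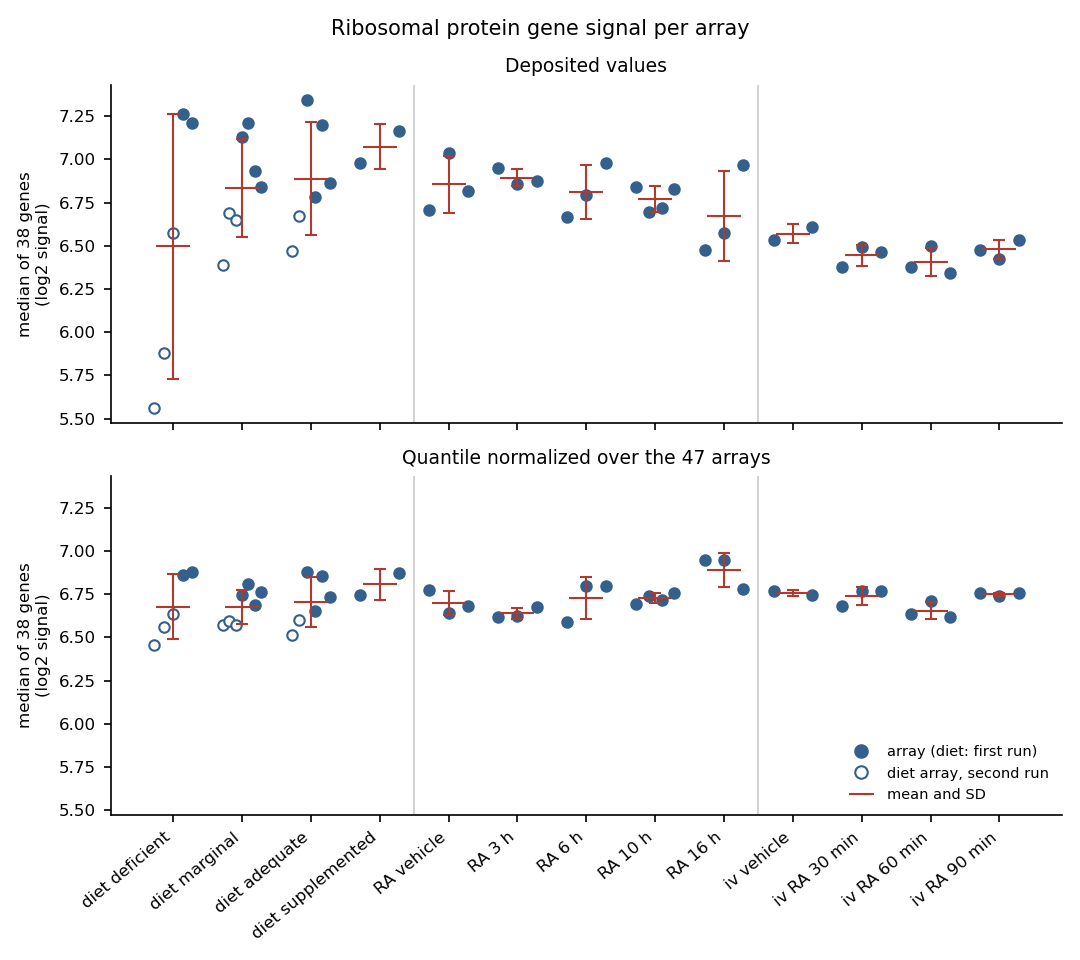
Median log2 signal of the 38 high-signal ribosomal protein genes on each of 47 arrays by group, as deposited (top) and after quantile normalization (bottom). Points are arrays, open points are diet arrays of the second run, and lines show the group mean and SD. In the deposited values the deficient group runs from 5.56 to 7.26, and after quantile normalization from 6.45 to 6.88.

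No ribosomal protein gene was called between deficient and adequate livers by limma (0 of 49 tested, against 1.08% of all probe sets), and 3 had an unadjusted p under 0.05, against 12.7% of all probe sets. The median difference of the 38 high-signal genes was -0.21, with 35 of 38 below 0, against a median of -0.11 over all probe sets tested. Leaving out 1 array at a time moved it from -0.33 (without deficient replicate 4) to -0.06 (without deficient replicate 1). After quantile normalization it was 0.04, with 21 above 0 and 17 below, against -0.02 over all probe sets, and again 0 were called (of all probe sets 1.22%). In the fit over both runs, the 95% confidence interval of the difference lay within 1 log2 unit of 0 for each of the 38 genes. That held in both versions. Within the second run alone, the intervals of the deposited values reached past -1 for each of these genes. It lay within 0.5 log2 units of 0 for 2 genes in the deposited values and for 35 after quantile normalization. For 0 of the 38 genes did the 5 deficient arrays lie entirely above or below the 6 adequate arrays, in either version. This occurs in 0.283% of all probe sets above and 0.779% below in the deposited values. Both diets are in both runs, and these genes differed between the runs (below), so this count cannot decide on a diet difference. Without the arrays that stood apart in scale or in Gapdh (deficient replicates 1, 2 and 5, adequate replicate 5), which leaves 2 deficient and 5 adequate arrays, the median difference of the deposited values was 0.10.

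The members were close to each other across their roles. Rplp0, which anchors the P stalk that recruits translation factors, differed by -0.04 ± 0.22 (SE) between deficient and adequate livers. Its signal was 5.58, 5.99, 6.41, 7.40 and 7.48 in deficient livers and 6.36 to 7.47 in adequate livers, so the deficient values surrounded the adequate ones. The first 3 deficient values are of the second run, whose adequate arrays had 6.36 and 6.44 (first run 6.65 to 7.47). Rpl5 and Rpl11, which bind 5S ribosomal RNA and can inhibit the p53 ligase Mdm2, differed by -0.34 ± 0.21 and -0.19 ± 0.21. Rpl3, near the peptidyl transferase centre, differed by -0.10 ± 0.21, and Rps6, the small-subunit protein phosphorylated by S6 kinase, by -0.09 ± 0.24. Rpsa, also known as the laminin receptor, differed by -0.32 ± 0.20 and Rpl22, which has an RNA-binding role outside the ribosome, by -0.32 ± 0.20. None of these passed the test.

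The widest differences were those of genes with weak signals. The 3 largest positive ones were Rpl39l1 (1.34), Rpl28 (0.97) and Rpl37-ps2 (0.93), and the 3 largest negative ones Rpl30 (-1.13), Rps27l (-0.71 ± 0.30, adjusted p = 0.299) and Rpl21 (-0.56 ± 0.21, adjusted p = 0.234). Rpl21, a large-subunit protein, was the one high-signal gene of these 6. Its signal was 4.49, 5.21, 5.64, 6.29 and 6.07 in deficient livers, and 5.78, 6.21 and 6.76 as the lowest, median and highest adequate values. Deficient replicates 1, 2 and 3 lay below the adequate arrays and replicates 4 and 5 among them. This split is also that of the runs: replicates 1, 2 and 3 are of the second run, whose adequate arrays had 5.78 and 6.11. Replicates 4 and 5 are of the first, whose adequate arrays had 6.09 to 6.76. After quantile normalization its difference was -0.25 ± 0.11 (adjusted p = 0.373).

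**Figure D2:**
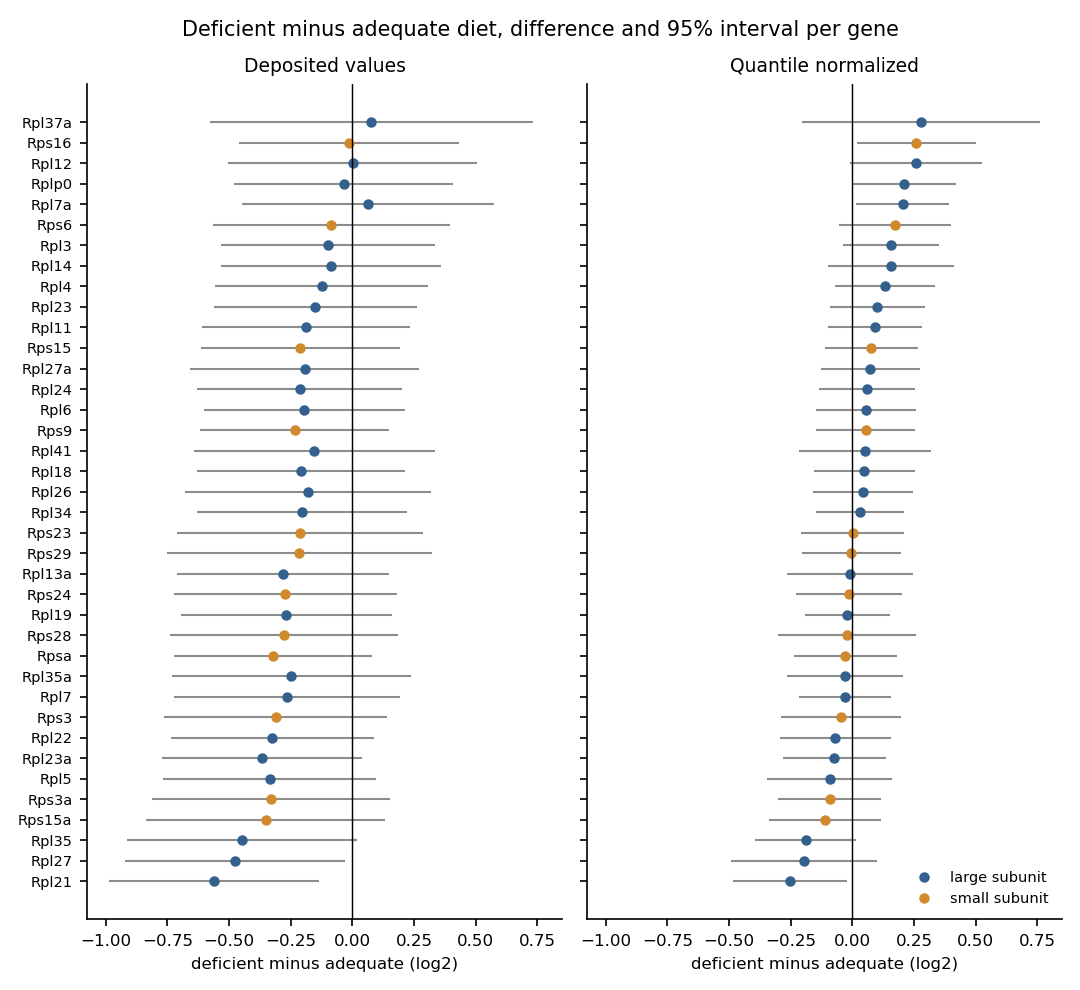
Difference of deficient minus adequate livers in log2 units with its 95% confidence interval for each of the 38 high-signal genes, as deposited (left) and after quantile normalization (right), in the order of the right panel. Blue points are large-subunit and orange points small-subunit genes; Rpl21 is lowest in both panels at -0.56 and -0.25, and the intervals are narrower on the right.

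The diet arrays were split into 2 runs by database identifier, and this split went with larger differences of ribosomal protein genes than diet did. Deficient replicate 5 was placed in the first run, though its identifier lies apart from those of the other first-run arrays. The first run holds 12 arrays and the second 8, with deficient, marginal and adequate livers in both and supplemented livers in the first only. What differed between the runs is not stated in the labels. On first-run arrays 50 to 429 probe sets lay at the array's lowest value. On second-run arrays 1594 to 3172 did, except on deficient replicates 1 and 2, with 65 and 168. The part of this in the run and diet differences was not tested. With diet in the same fit, 30 of 49 ribosomal protein genes were called between the runs, 28 lower and 2 higher in the second run, against 13.6% of all probe sets (10.2% lower). The median of the 38 genes was -0.68, against -0.05 over all probe sets. After quantile normalization 24 of 49 were called, 22 lower and 2 higher (of all probe sets 13.5%, 6.99% lower), and the median was -0.25. The median signal of the 38 genes per array ran from 6.78 to 7.34 in the first run and from 5.56 to 6.69 in the second, with no overlap. It did not overlap after quantile normalization either, at 6.66 to 6.88 and 6.45 to 6.64. This comparison was added after the values were seen.

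Among the high-signal genes, Rpl13a, which also acts in silencing of inflammatory mRNAs, differed by -1.16 ± 0.17 (second minus first run, adjusted p = 9.54e-06). Rpl11 differed by -1.04 ± 0.16 (adjusted p = 2.98e-05) between the runs, Rpl41, the shortest of the family, by -1.08 ± 0.19 and Rpl18 by -1.02 ± 0.16. Rps6 differed by -0.22 ± 0.19 (adjusted p = 0.51) and was not called. Rps4y2, a low-signal copy of the Rps4 gene, differed by -1.18 ± 0.20. Rpl28 and Rpl37a were the 2 genes called higher in the second run. Rpl28 differed by 2.27 ± 0.61 (adjusted p = 0.0101), but from a weak signal of -4.85 to -0.22 on the deficient and adequate arrays.

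Rpl37a (platform gene ID 100361520), a zinc-binding protein of the large subunit, moved apart from the family. Its signal ran from 6.01 to 8.10 (median 6.99) on the 12 first-run diet arrays, from 6.74 to 8.17 (median 7.80) on the 8 second-run arrays, from 7.43 to 7.90 in the RA time course and from 7.21 to 7.50 in the intravenous experiment. After quantile normalization these ranges were 5.84 to 7.72, 7.62 to 7.90, 7.29 to 7.79 and 7.57 to 7.77. On that scale all arrays outside the first run lay between 7.29 and 7.90, and the median of the first-run arrays, 6.51, was below them. The run difference was 0.73 ± 0.25 (adjusted p = 0.0498) in the deposited values and 1.13 ± 0.19 (adjusted p = 8.16e-05) after quantile normalization. Its diet difference, deficient minus adequate, was 0.08 ± 0.32 (adjusted p = 0.95) over both runs. It was 0.87 ± 0.38 (adjusted p = 0.516) within the first run and -0.56 ± 0.44 (adjusted p = 0.503) within the second, and the test of the difference between the runs gave -1.44 ± 0.55 (adjusted p = 0.334).

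Within the first run, the median difference of deficient minus adequate over the 38 genes was 0.16 (32 above 0), and within the second it was -0.54 (38 of 38 below 0). After quantile normalization both were small, at 0.08 and 0.04. The test of the difference between the runs called 0 of 49 genes by limma (0.0544% of all probe sets). In that test 14 of 49 had an unadjusted p under 0.05, and the median over the 38 genes was -0.69. After quantile normalization this median was -0.05. The share of all probe sets at that unadjusted p and their medians are not given here. The count of 14 and the medians therefore cannot be read as particular to the family. The 3 largest positive differences between the runs were those of Rpl30 (4.21), Rpl39 (1.64) and Rps27l (1.08), and the 3 largest negative ones those of Rpl26l1 (-5.00), Rpl37a (-1.44) and Rpl14 (-1.04), with adjusted p-values of 0.258 to 0.489. The second run holds deficient replicates 1, 2 and 3, so the 2 arrays of narrow scale are among its 3 deficient arrays. The first run holds deficient replicates 4 and 5, and replicate 5 is the array whose identifier lies apart.

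Marginal and supplemented livers did not differ detectably from adequate ones in these genes. For marginal minus adequate, 0 of 49 genes were called by limma and 0 had an unadjusted p under 0.05 (0% and 3.32% of all probe sets), and the median of the 38 genes was 0.01, with 33 of 38 confidence intervals within 0.5 log2 units of 0. The median signal per array was 6.39, 6.84 and 7.21 (lowest, median and highest of 7) in marginal livers. The widest differences were those of Rpl37-ps2 (0.99), Rpl3l (0.84) and Rpl39l1 (0.45) above 0, and of Rps13 (-0.61), Rpl26l1 (-0.24) and Rps27l (-0.14) below, each a low-signal gene. For supplemented minus adequate, limma called 0 of 49 and found 0 at an unadjusted p under 0.05 (0.0109% and 3.63% of all probe sets), with a median of -0.05. The 2 supplemented arrays had medians of 6.98 and 7.17, inside the adequate range. The widest differences were those of Rpl37-ps2 (1.91), Rpl28 (1.05) and Rpl3l (1.04), and of Rpl30 (-1.68), Rpl39l1 (-0.86) and Rpl39 (-0.75), again low-signal genes. For supplemented minus deficient, limma called 0 of 49 and found 1 at an unadjusted p under 0.05 (0.42% and 8.62% of all probe sets). The median was 0.19 in the deposited values and 0.01 after quantile normalization. Rpl21 had the largest difference of a high-signal gene there, 0.62 ± 0.30 (adjusted p = 0.578), and was the one gene whose 2 supplemented values lay above the 5 deficient ones, against 7.35% of all probe sets. The other extremes were Rpl37-ps2 (0.99) and Rps27l (0.60) above 0, and Rpl39l1 (-2.20), Rpl30 (-0.56) and Rpl39 (-0.33) below.

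**Figure D3:**
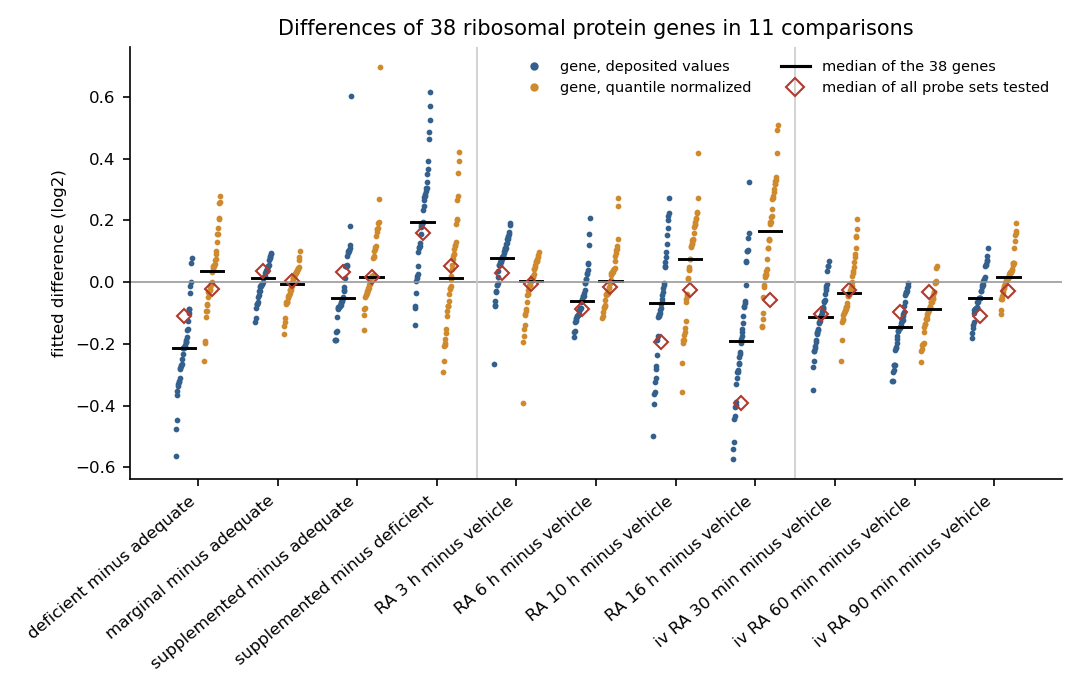
Fitted difference in log2 units of each of the 38 high-signal genes in 11 comparisons, deposited values in blue and quantile-normalized values in orange. Black bars are the median of the 38 genes and red diamonds the median of all probe sets tested; at 16 h of RA the black bar is at -0.19 as deposited and 0.16 after quantile normalization, above the diamond both times.

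The RA time course asked how these transcripts follow a dose of RA in vitamin A-deficient livers. The median signal of the 38 genes was 6.71, 7.04 and 6.82 on the vehicle arrays. It was 6.95, 6.86 and 6.88 at 3 h, 6.67, 6.79 and 6.98 at 6 h, and 6.84, 6.70, 6.72 and 6.83 at 10 h. At 16 h it was 6.48, 6.58 and 6.97, so replicates 1 and 2 lay below and replicate 3 within the vehicle range. After quantile normalization the order turned: the vehicle arrays had 6.78, 6.64 and 6.68 and the 16 h arrays 6.95, 6.95 and 6.78. The Gapdh 3′ minus 5′ value was 0.95 on vehicle replicate 1, against a median of 0.49 over this time course. That array was not counted among those that stood apart.

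At 3, 6 and 10 h limma called 0 of 48 ribosomal protein genes, against 0.0762%, 0.201% and 0.488% of all probe sets. Unadjusted p-values under 0.05 were found for 0, 0 and 1 of them (3.27%, 5.11% and 9.6% of all probe sets). The medians of the 38 genes were 0.08, -0.06 and -0.07, and after quantile normalization 0.00, 0.00 and 0.07. Leaving out 1 array at a time, they ran from 0.04 to 0.17, from -0.13 to 0.02 and from -0.12 to 0.02, and vehicle replicate 2, the highest vehicle array, gave the upper end each time. The widest differences at 3 h were those of Rpl39l1 (1.35), Rpl26l1 (0.59), Rpl7l1 (0.37), Rpl3l (-0.75), Rpl37-ps2 (-0.33) and Rpl13a (-0.27). At 6 h they were those of Rpl37-ps2 (1.54), Rpl3l (0.79), Rpl39l1 (0.72), Rpl26l1 (-1.93), Rpl30 (-0.95) and Rplp0 (-0.18), and at 10 h those of Rps13 (0.88), Rpl39 (0.71), Rpl37-ps2 (0.61), Rpl11, Rpl7l1 (-0.44) and Rpl27 (-0.40). Rpl13a, Rplp0, Rpl11 and Rpl27 are the high-signal genes among these. At 10 h, Rpl22 and Rpl26 lay above vehicle on 4 of 4 arrays (2.46% of all probe sets), and Rpl13a, Rpl19, Rpl11, Rpl14 and Rpl5 lay below on 4 of 4 (7.46%). Rpl11 had the largest negative difference at 10 h, -0.50 ± 0.20 (adjusted p = 0.388). Its signal was 6.87, 7.07 and 6.97 with vehicle and 6.41, 6.45, 6.59 and 6.45 at 10 h, so the groups did not overlap.

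At 16 h, 1 of 48 ribosomal protein genes was called, Rpl39, against 6.11% of all probe sets (0.222% higher and 5.89% lower). Of the 48, 5 had an unadjusted p under 0.05, against 21.8% of all probe sets. The median of the 38 high-signal genes was -0.19, with 30 of 38 below 0, while the median over all probe sets was -0.39. After quantile normalization the median of the 38 genes was 0.16, with 31 of 38 above 0, against -0.06 over all probe sets. Of the 48 genes, 17 then had an unadjusted p under 0.05, against 13.9% of all probe sets, but Rpl39 remained the 1 called gene (of all probe sets 1.11%). The sign of the family's median therefore depended on the scaling, while in both versions it lay above the median of all probe sets. Without 16 h replicates 1 and 2, which stood apart in their scale, the median was 0.10 in the deposited values and 0.07 after quantile normalization. This leaves 1 array at 16 h, which is assumed to vary like the arrays of the other groups. The 16 h replicates 1 and 2 also had low mean correlations with the arrays of their experiment, 0.676 and 0.72 (median 0.78). The RA hydroxylase gene Cyp26a1 was at 0.38 and -2.71 on them, 4.16 on replicate 3, and -4.73 to -0.89 with vehicle. The cause was not tested.

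Leaving out 16 h replicate 3 instead gave a median of -0.35 and 11 called genes, 10 of them lower: Rpl19, Rps24, Rpl27, Rpl11, Rplp0, Rpl4, Rpl18, Rpl24, Rpl13a and Rpl26l1. With all 3 arrays none of these 10 was called, while 5.89% of all probe sets were called lower. The share of all probe sets called without replicate 3 is not given here. The count of 10 therefore cannot be read as particular to these genes. Rplp0 had 6.73, 7.08 and 6.82 with vehicle and 6.12, 6.36 and 6.86 at 16 h, a difference of -0.44 ± 0.21 (adjusted p = 0.224). Rpl18 had 6.17, 6.75 and 6.52, and 5.44, 5.74 and 6.53, a difference of -0.57 ± 0.24 (adjusted p = 0.143). In both genes replicate 3 lay within the vehicle range and replicates 1 and 2 below it. Rpl11 differed by -0.54 ± 0.21 (adjusted p = 0.126), and Rpl26l1, a low-signal copy of Rpl26, by -2.19 ± 1.16 (adjusted p = 0.275). The largest positive differences after Rpl39 were those of the low-signal Rpl37-ps2 (1.73) and Rpl3l (0.85), which did not pass either.

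Of the 50 genes, 6 have 7 further probe sets, all dimmer than the chosen one, and 1 of these was called, in 1 of the 11 comparisons of diets or of RA with vehicle. The second probe set of Rpl7, with a mean signal of 2.15, gave 1.21 ± 0.36 at 16 h (adjusted p = 0.0433, limma), while the chosen one, with a mean of 7.24, gave -0.24 ± 0.20 (adjusted p = 0.525), so both disagree in sign.

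For 2 of the 38 genes, Rpl22 and Rpl26, the 3 arrays at 16 h lay above the 3 vehicle arrays, a share near that of all probe sets (3.99%), and neither passed the test. Rpl22 had 6.37, 6.43 and 6.36 with vehicle and 6.56, 6.46 and 6.46 at 16 h, and Rpl26 had 8.00, 7.98 and 7.86, and 8.31, 8.27 and 8.23. None of the 38 genes lay entirely below (13.8% of all probe sets). Rpl22 differed by 0.11 ± 0.18 (adjusted p = 0.798), and by 0.51 ± 0.15 (adjusted p = 0.0879) after quantile normalization. On that scale 8 genes lay above vehicle on 3 of 3 arrays (Rpsa, Rpl23a, Rpl12, Rps15, Rpl14, Rpl26, Rpl35a and Rps15a), against 7.01% of all probe sets, and Rpl22 was not among them.

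Rpl39 (platform gene ID 25347), a very short protein of the exit tunnel, was the gene that rose. Its signal was 0.11, 1.54 and -0.69 with vehicle, 0.52, 0.44 and 0.29 at 3 h, 0.15, 1.82 and 0.17 at 6 h, and 2.33, 1.87, -0.26 and 0.18 at 10 h. At 16 h it was 2.68, 2.45 and 2.25, above the 3 vehicle arrays and the arrays of 3 h and 6 h. The difference at 16 h was 2.14 ± 0.62 (adjusted p = 0.0369, limma), and 2.62 ± 0.62 (adjusted p = 0.0324) after quantile normalization. At 10 h it was 0.71 ± 0.58 (adjusted p = 0.756), with 2 of 4 arrays near the 16 h level and 2 among the vehicle values.

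The rise rests on a weak and variable probe set. The mean signal of Rpl39 was 0.96 over all groups, its within-group SD was 0.86, and its lowest place on any array was the 33.92th percentile. On the diet arrays it ran from -0.92 to 2.27 and in the intravenous experiment from 0.62 to 2.08. The call was kept in 18 of 25 alternatives, with differences of 1.64 to 2.75 and adjusted p-values of 0.0247 to 0.571. Those that left out a 3, 6 or 10 h array could not change the difference of 2.14, only its error. The mean over probe sets changed nothing, as Rpl39 has 1. The call was lost with limma's eBayes without an intensity trend (adjusted p = 0.186). Leaving out 16 h replicate 1 (0.123) or 2 (0.0809), or vehicle replicate 1 (0.0558) or 3 (0.223), also lost it. Leaving out 16 h replicate 3 (0.0264) or vehicle replicate 2 (0.0437) kept it. Without 16 h replicates 1 and 2 together, which leaves 1 array, the difference was 1.93 (adjusted p = 0.571), and 2.10 (adjusted p = 0.478) after quantile normalization. In the other experiments Rpl39 did not pass the test, and supplemented minus adequate was -0.75 ± 0.65.

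**Figure D4:**
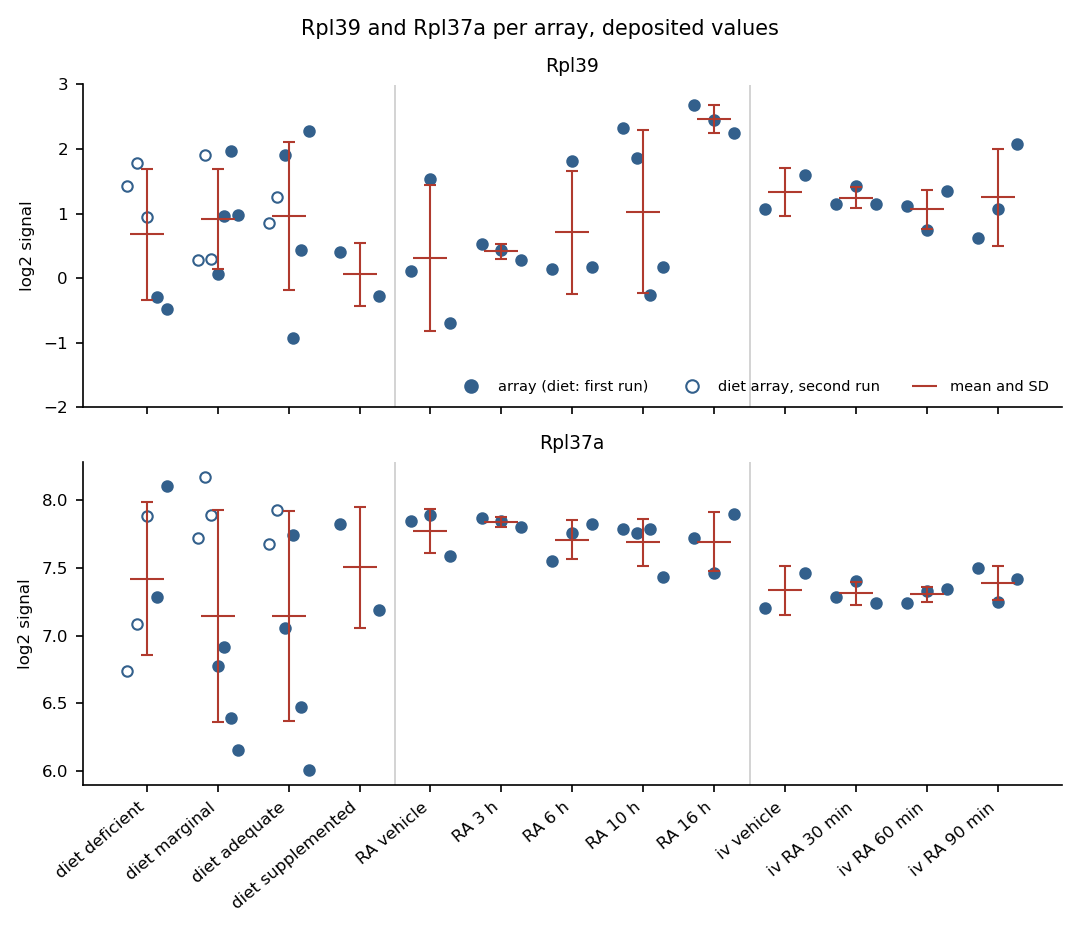
Log2 signal of Rpl39 (top) and Rpl37a (bottom) on each array by group, deposited values. Points are arrays, open points are diet arrays of the second run, and lines show the group mean and SD. The 3 Rpl39 values at 16 h of RA lie between 2.25 and 2.68, and Rpl37a spreads from 6.01 to 8.17 over the diet arrays but from 7.21 to 7.90 over the others.

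The intravenous experiment asked about the first minutes after RA in livers of rats on a stock diet. The median signal of the 38 genes was 6.53 and 6.61 on the 2 vehicle arrays. It was 6.38, 6.49 and 6.47 at 30 min, 6.38, 6.50 and 6.34 at 60 min, and 6.48, 6.42 and 6.54 at 90 min. The arrays of 30 and 60 min lay below both vehicle arrays, and 1 of the 3 at 90 min reached the lower vehicle value.

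Limma called 0 of 46 ribosomal protein genes at 30, 60 and 90 min, against 0.0879%, 0.387% and 0.505% of all probe sets. Unadjusted p-values under 0.05 were found for 2, 5 and 0 genes (8.94%, 10.1% and 10.7% of all probe sets). The medians of the 38 genes were -0.11, -0.15 and -0.05, against -0.10, -0.10 and -0.11 over all probe sets. At 60 min 38 of 38 genes were below 0, and after quantile normalization 34 of 38 were, with a median of -0.09 against -0.03 over all probe sets. Genes with all RA arrays below both vehicle arrays numbered 14 at 30 min (19.1% of all probe sets), 12 at 60 min (18.7%) and 6 at 90 min (20.1%). After quantile normalization they numbered 3, 15 and 1 (12.4%, 14.1% and 13.5%). The 38 confidence intervals lay within 0.5 log2 units of 0 for 33, 31 and 38 genes at 30, 60 and 90 min.

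Rpl14, a large-subunit protein, had the largest negative difference of a high-signal gene at 60 min, -0.32 ± 0.13 (adjusted p = 0.42). Rpl22 had 6.17 and 6.21 with vehicle and 5.86, 6.03 and 5.85 at 60 min, a difference of -0.27 ± 0.11 (adjusted p = 0.429), with the RA arrays below both vehicle arrays. Rpl24, a protein of the subunit interface, had 6.17 and 6.23 with vehicle and 5.64, 5.94 and 5.98 at 30 min, a difference of -0.35 ± 0.13 (adjusted p = 0.46). The low-signal Rps4y2 had the largest negative differences of the family at 30 and 60 min, -1.02 ± 0.36 (adjusted p = 0.423) and -0.79 ± 0.36 (adjusted p = 0.484). Rps6 differed by -0.11, -0.12 and 0.02 at 30, 60 and 90 min, each with an SE of 0.12. The other extremes were mostly low-signal genes. Rpl37-ps2 (0.81, 0.54 and 1.37 at 30, 60 and 90 min) and Rps13 (0.51, 0.23 and 0.45) were highest each time, followed by Rps16 (0.07), Rpl26l1 (0.07) and Rpl5 (0.11). Rpl30 (-0.49, -0.40 and -0.53) was among the lowest each time, and at 90 min so were Rps27l (-0.40) and Rps4y2 (-0.35).

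The values of most high-signal genes lay closer together within groups after quantile normalization. The pooled SD between arrays of a group ran, over the 38 genes, from 0.23 to 0.50, with a median of 0.35. After quantile normalization the median was 0.17, while the median over all probe sets, most of them dimmer, went from 1.024 to 1.021. The spread narrowed in 37 of the 38 genes, and Rpl37a was the exception, at 0.50 and 0.52. The method gives every array the same distribution, so for genes near the top of every array some narrowing is built in. The narrowest in the deposited values were Rpl26 (0.233), Rpl5 (0.256), Rpl34 (0.259), Rpl3 (0.262) and Rpl7 (0.267), and after quantile normalization Rpl34 (0.078) and Rpl7 (0.081) were narrowest. The widest of the high-signal genes were Rpl37a (0.501), Rpl13a (0.497), Rpl41 (0.476), Rpl18 (0.456) and Rpl14 (0.455). Over all members the low-signal genes were wider: Rpl39l1 (1.502), Rpl30 (1.443), Rps4x-ps1 (1.412), Rpl26l1 (1.365) and Rpl37-ps2 (1.339).

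**Figure D5:**
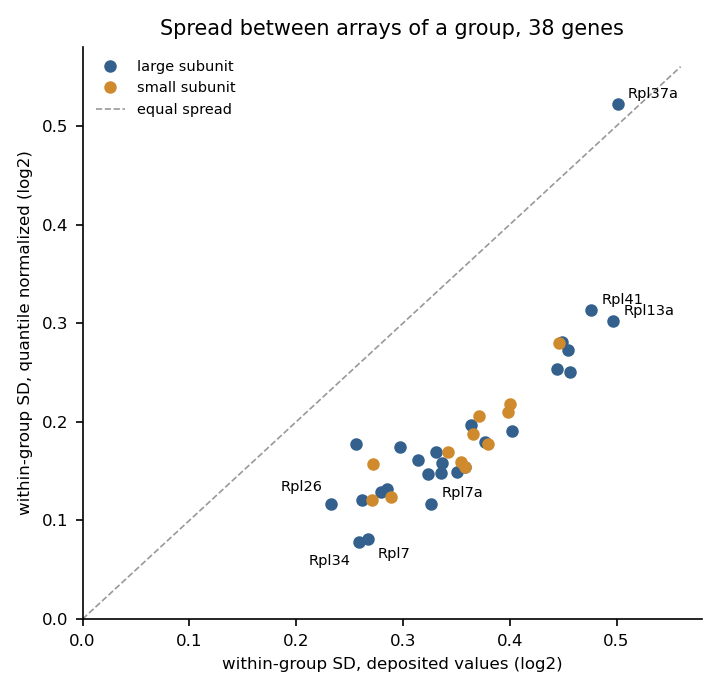
Pooled within-group SD (log2) of each of the 38 high-signal genes in deposited values (x axis) and after quantile normalization (y axis), large-subunit genes in blue and small-subunit genes in orange. The dashed line marks equal spread; 37 genes lie below it and Rpl37a, at 0.501 and 0.522, above it.

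Other genes of ribosome production were compared by lists of known function. Between deficient and adequate livers, 0 of 79 ribosome biogenesis genes and 0 of 16 translation factors and other TOP mRNAs were called, against 1.08% of all probe sets. Of 26 genes of translational control, 2 were lower: Akt1, a kinase of insulin signalling (-0.74 ± 0.18, adjusted p = 0.0299), and Mknk2, a kinase of the initiation factor eIF4E (-1.05 ± 0.25, adjusted p = 0.0283). Of 73 mitochondrial ribosomal protein genes, 1 was lower (Mrpl1, -0.76 ± 0.19, adjusted p = 0.0423), a share near that of all probe sets. After quantile normalization (1.22% of all probe sets) Mknk2 remained the 1 called control gene, 0 mitochondrial genes were called, and 1 biogenesis gene, Krr1, was higher. List medians were -0.09, -0.14, -0.19 and -0.19 in this order, beside -0.11 over all probe sets and -0.21 over the 38 cytosolic ribosomal protein genes.

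At 16 h of RA, some genes of these lists were called lower in the deposited values, while Rpl39, which rose, was the 1 called gene of the cytosolic ribosomal proteins. Of 79 biogenesis genes, 5 were lower (Fbl, the box C/D methyltransferase, Dkc1 and Nhp2 of the box H/ACA particles, Gnl3l and Eif6), with Fbl at -1.17 ± 0.27 (adjusted p = 0.0127) and Dkc1 at -2.49 ± 0.61 (adjusted p = 0.0165). Of the 16 translation factors and other TOP mRNAs, 3 were lower (Eif3l -0.86, Eif4a2 -0.89 and Nap1l1 -1.14), and of the 26 control genes 6 (Tsc1, Eif4ebp2, Eif4g1, Larp1, Pdcd4 and Atf4). Larp1, which binds TOP mRNAs, differed by -0.86 ± 0.26 (adjusted p = 0.0422). Of the 73 mitochondrial ribosomal protein genes 2 were lower (Mrpl17 and Mrpl21). Beside 5.89% of all probe sets called lower, the share of the biogenesis list is close to the background and that of the mitochondrial list below it. The shares of the 2 short lists are higher but were not tested against it. List medians were -0.42, -0.48, -0.54 and -0.39, beside -0.39 over all probe sets and -0.19 over the 38 genes. After quantile normalization 1.11% of all probe sets were called in either direction. Of these 4 lists 0 genes were then lower, and 3 of the 73 mitochondrial ones were higher (Mrpl53, Mrpl37 and Mrpl1). That share was not tested against the background. The list medians were 0.01, 0.09, -0.25 and 0.18.

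Cell type markers were also compared at 16 h, where 5.89% of all probe sets were called lower and 0.222% higher in the deposited values. After quantile normalization 1.11% were called in either direction. The marker counts were not tested against these shares. Medians per array of 10 measured Kupffer cell markers ran from 1.93 to 2.80 at 16 h and from 2.94 to 3.10 with vehicle, and 3 of the 10 were called lower in the deposited values (Clec4f, Cd5l and C1qb), 0 after quantile normalization. None of the 10 was at the floor on all arrays of a group. Medians of 7 endothelial markers ran from 1.62 to 2.18 at 16 h and from 2.72 to 3.09 with vehicle, and 1, Kdr, was called lower (0 after quantile normalization). Of 8 stellate cell and fibroblast markers, with medians of -2.55 to 0.51 and 0.07 to 0.85, Col3a1 was called lower in both versions. Hepatocyte marker medians ran from 8.83 to 9.04 at 16 h and from 8.59 to 8.98 with vehicle. Of these 7 genes Alb was called higher in the deposited values, and after quantile normalization Fgb was called lower and Alb was not called. Of 7 pancreatic acinar markers 1, Cela1, was called lower (0 after quantile normalization), and of the B cell, T and NK cell, neutrophil, cholangiocyte, erythroid and cell cycle lists 0 were called in either version. Their part in the differences of ribosomal protein genes was not tested.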

How the data were processed

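Liver RNA of 47 rats was hybridised to single-colour Affymetrix arrays. The deposited table holds log2 signals made by the authors with GCOS per the submitters' processing notes (version not given); the log base was read from the range of the values. Each array's median is 0, its lowest probe sets share a floor value, and the scaling is not given in the sources used here.

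To be tested, a probe set had to exceed the 40th percentile of the array on 2 or more arrays of its experiment, which left 27595, 28869 and 22763, without 57 control probe sets. The 3 experiments had separate limma fits (version 3.58.1, R 4.3.3; lmFit on group means, then eBayes with a trend on intensity), and the diet fit had the run of identifiers as a covariate. A call is a Benjamini-Hochberg adjusted p under 0.05 over all probe sets tested. Errors of differences are SEs. Of the 50 genes, 49, 48 and 46 were tested (47 within a run). The script was tested on simulated data. Tables were read with Python 3.11.15, pandas 2.3.3 and numpy 2.4.6, and plotted with matplotlib 3.10.9. The number of arrays limits the precision.

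Members and lists were chosen with earlier results of these data known. Named genes were, per comparison, up to 10 called members each way, the 3 largest positive and 3 largest negative differences, a fixed set (Rplp0, Rplp1, Rplp2, Rpsa, Rps6, Rpl3, Rpl5, Rpl10, Rpl11, Rpl22, Rpl22l1, Rps27 and Rps27l, where measured), and the 5 extremes of level and spread; others were chosen after their values were seen. Alternatives were no filter, quantile normalization, limma arrayWeights, eBayes with no trend, a 1.5-fold minimum, the mean over a gene's probe sets, the replicate number as a block, other treatments of the run, each array left out, and, chosen after seeing the data, the arrays that stood apart left out, centring on the 38 genes and the run difference itself.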

Additional observations from a re-analysis of the deposited data

Results flagged for a closer look

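Of 92 sets of arrays of one group that were examined, 5 had an array far from the others, and chance gives about 1 in 20. The 38 genes made up 2.69% of the summed linear signal on RA 10 h replicate 1 and 2.82% to 2.84% on the other 3 arrays of that group. Rpl37a was 7.43 on RA 10 h replicate 4 and 7.76 to 7.79 on the other 3. After quantile normalization, Rps6 was 7.04 on RA 10 h replicate 1 and 7.21 to 7.22 on the other 3. Rps27l was 1.06 on deficient replicate 5 and 2.29 to 2.58 on the other 4. Rpl37a was 6.88 on deficient replicate 4 and 7.62 to 7.85 on the other 4, which include the 3 second-run arrays.

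Outside the 50 genes, 1 of 36 probe sets that list several ribosomal protein symbols was called at 16 h of RA. It lists Rpl22l3, Rpl22l2 and Rpl22l1, copies of Rpl22, and was lower than with vehicle by a log2 difference of -1.07 ± 0.28 (adjusted p = 0.0218, limma), and by -0.51 ± 0.18 (adjusted p = 0.174) after quantile normalization. The single-gene probe set of Rpl22 differed by 0.11 ± 0.18 there.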

How the results depend on the processing

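In 1095 combinations of result and alternative, called counts stayed within 1.5 times, or median differences moved by less than the pooled SD between arrays. In 34 they moved by more. Many alternatives left out an array of another group, and many counts were 0 throughout, so the 1095 cannot show that the results are stable. The pooled SD held the run differences. It was 0.567 for deficient minus adequate and 0.689 for supplemented minus deficient, larger than the medians themselves. Within that SD the sign could still turn: the median of the 38 genes in deficient minus adequate was 0.04 after quantile normalization, and leaving out 1 array gave -0.13 to 0.02 at 6 h of RA, -0.12 to 0.02 at 10 h, -0.14 to 0.07 in supplemented and -0.05 to 0.07 in marginal minus adequate. With quantile normalization, the median difference between the runs in deficient minus adequate was -0.064 over all members (-0.049 over the 38 genes), RA 10 h gave 0.074 for both, also without the arrays that stood apart, RA 16 h 0.195 (0.164), 30 min -0.037 for both and 90 min 0.014 (0.018). The count at 16 h was 0 without an eBayes trend, and 0 without the arrays that stood apart, in both versions. Those arrays out (1 of 3 is left at 16 h, assumed to vary like the other groups), the 16 h medians were 0.115 (0.099) and, after quantile normalization, 0.084 (0.071). Centring on the 38 genes gave 0.014, 0.018 and 0.041 at 30, 60 and 90 min for both sets. Leaving out 1 array at a time, the 16 h count ran from 0 to 11, and the medians at 30 and 90 min from -0.161 to -0.043 and from -0.089 to 0.019, for both sets; vehicle replicate 2 gave the upper ends. The causes were not tested.

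Samples with the same replicate number did not deviate together (median r of 0.025, 0.001 and 0.005 in the 3 experiments), so the numbers do not pair them. With the replicate block, 1 ribosomal protein gene was called at 16 h of RA and 0 in the other comparisons, as without it; the block moved the count over all probe sets to 1446 at 16 h and 243 in deficient minus adequate.

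The small groups (2 supplemented and 2 intravenous vehicle arrays), the unstated scaling and run, and the weak signals of 12 genes limit these results.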
